A study of Rattus norvegicus with 13 samples.

Results

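The genes of the kinetochore, the spindle and cytokinesis were taken by symbol from the table of gene expression, which holds 14790 genes, and 73 genes carried a symbol of the rule. The symbols were those of the Cenp series, the NDC80, MIS12 and SKA complexes, the spindle checkpoint, the Aurora and Polo-like kinases, the chromosomal passenger complex, the anaphase promoting complex (APC/C), proteins of the spindle and the cleavage furrow, the Cdca series, Mki67 and Foxm1. The rule uses no expression value. RNA-seq was done on mammary epithelial cells of Wistar-Furth rats, a strain susceptible to mammary carcinogenesis, with 1 library per rat. The rats were 6 weeks old (within the window of susceptibility, WOS, n = 6) or 10 weeks old (outside WOS, n = 7). No rat carried an allele or received a treatment that the labels name. The cells were ductal fragments of the abdominal and inguinal glands, freed with collagenase and held back by a filter, and the study describes such preparations as mostly epithelial, with stromal fibroblasts and immune cells among them. The question of the comparison is which of these genes differed in expression between cells within and outside WOS.

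At mitosis each chromosome carries a kinetochore on its centromere, and the kinetochore holds the microtubules of the spindle. The inner kinetochore sits on nucleosomes with the histone CENP-A, and the outer kinetochore binds the microtubules. Until every kinetochore is attached, the spindle checkpoint holds back the APC/C, a ubiquitin ligase whose action releases separase, parts the sister chromatids and lets cytokinesis begin. Most transcripts of this machinery are made in dividing cells late in the cell cycle. Several APC/C subunits also act outside mitosis. The mammary gland of the young rat grows by division of cells in its ducts and end buds.

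The values are counts that the authors scaled per library and rounded, here called normalized counts. They summed to between 13261906 and 15659533 per rat after scaling, so the sequencing depth of each library is unknown. The whole numbers from 1 to 30 were not all in use in every rat, and up to 16 of them never occurred in a library, so low values are coarse in those rats. The most were missing in rats 78 (16), 80 (15) and 75 (10). On the first component of the residuals over all genes, 5 rats stood apart from the other 8, with 2 rats of 6 weeks (75 and 80) and 3 of 10 weeks (78, 81 and 83) among them. No label names a cause or a batch for this split. Results are given for all 13 rats, and beside them for the larger set of 8 rats alone where a call of a named gene differs.

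Markers of the luminal and basal epithelium were present in every rat. For instance, Epcam, an adhesion protein of epithelia, was listed at 8992 or more. Of 14 luminal markers 0 were higher at 6 weeks and 1 was higher at 10 weeks (Epcam, log2 fold change −0.39), and of 9 basal markers 0 were higher at 6 weeks and 1 was higher at 10 weeks (Cnn1, a smooth muscle calponin, −0.46), where 7.39% of all genes were. Both calls were lost in the larger set (Epcam −0.24, adjusted p = 0.217, and Cnn1 −0.46, adjusted p = 0.0925, limma), and in the fits without 1 rat Epcam was called in 0 of 13 and Cnn1 in 4. The sum of the luminal markers ran from 31601 to 62621 at 6 weeks and from 45301 to 70752 at 10 weeks, and that of the basal markers from 23693 to 35955 and from 32174 to 42435. The counts at 6 weeks that follow can be read against 8.71% of all genes. Of 6 fibroblast markers 3 were higher at 6 weeks, namely the collagen genes Col1a1 and Col3a1 and the matrix proteoglycan gene Lum. The fibroblast sum ran from 106248 to 221823 at 6 weeks and from 19294 to 55217 at 10 weeks, with no overlap. Most of this sum was Col1a1 and Col3a1. The other fibroblast markers, Pdgfra (log2 fold change 0.13), Dcn (0.57) and Dpt (0.525), overlapped between the ages and did not pass. Of 7 mast cell markers 6 were higher at 6 weeks and Kit was higher at 10 weeks. The mast cell sum ran from 1858 to 2906 and from 1523 to 3780, and most of it was Kit. The 6 markers other than Kit summed to between 406 and 965 at 6 weeks and between 25 and 240 at 10 weeks, with no overlap. Higher at 6 weeks were also 2 of 5 adipocyte markers (Adipoq and Plin1, sums of 1490 to 2400 and 1414 to 2653). By limma, 0 of 8 macrophage markers and 0 of 7 endothelial markers passed the threshold. In each list 1 had an unadjusted p under 0.05, where 4667 of all 14790 genes did. The sums of these lists overlapped, at 612 to 1438 and 595 to 1356 for macrophages and 9058 to 15063 and 9138 to 14288 for endothelium. Of these markers, Adipoq, Plin1, Ms4a2, Hdc, Tpsb2 and Tpsab1 were listed at 0 in at least 1 rat. The fibroblast and mast cell markers that were called mostly share the direction of the genes below, and the part of other cell types in the result was not tested. In such bulk samples fewer dividing cells and less RNA of these genes per cell cannot be told apart.

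Most of the mitotic genes were higher within WOS. By limma on log2(normalized count + 1), adjusted over all genes with a threshold of 0.05, 43 of 73 genes were higher at 6 weeks, where 8.71% of all genes were. At 10 weeks 1 gene was higher (Plk3), where 7.39% of all genes were, and 29 genes did not pass. Below, a gene that rose is one called higher at 6 weeks than at 10 weeks, so the word does not mean an increase with age. The median log2 fold change (6 weeks over 10 weeks) over the 73 genes was 1.57, and over all genes it was 0.028. It was above 0 for 65 genes, above 1 for 43 and above 2 for 29, and the range ran from −0.86 (Plk3) to 3.67 (Tpx2). For 34 genes every rat of 6 weeks lay above every rat of 10 weeks, where 3.29% of all genes did, and for 0 genes the reverse held, where 2.78% of all genes did. For genes with low values this scale gives less than the full change. Each p measures the spread between rats.

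The difference was also measured without the 5 rats that stood apart. The 2 sets were split in these same data, at the widest gap on the residual component, and were not fixed beforehand. The limma p-values within a set do not take account of this choice. In the larger set of 8 rats alone 51 of the genes were higher at 6 weeks, against 13.6% of all genes, and 2 (Plk3 and Mis12) were higher at 10 weeks, against 9.92% of all genes. The median log2 fold change there was 1.88. Groups did not overlap for 54 genes with 6 weeks higher, where 14.3% of all genes did not, and for 2 genes with 10 weeks higher, where 12.8% did not. In the smaller set, with 2 rats against 3, limma called 0 of the 73 genes and 0.0% of all genes at 6 weeks. There 23 of the 73 genes had an unadjusted p under 0.05, where 1976 of all 14770 genes tested did. The median log2 fold change in the smaller set was 1.03, and all 43 genes called over 13 rats were above 0 in both sets. The 43 were chosen over these same rats, so their sign in the sets is no independent support. Whichever single rat was dropped, 42 of the 44 calls were kept. The other calls, Plk1 and Plk3, were each made in 7 of these 13 fits.

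**Figure D1:**
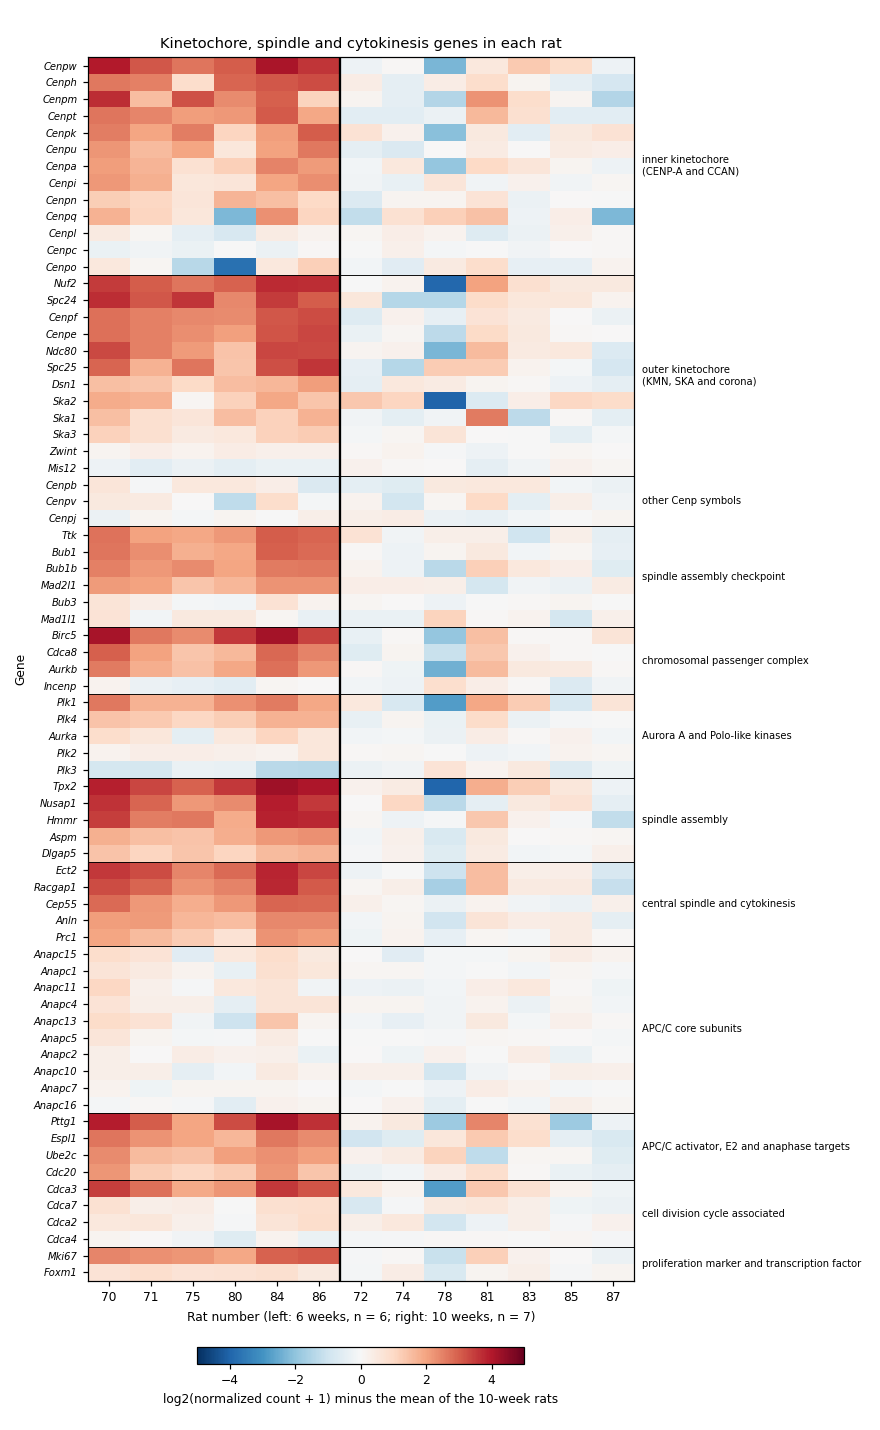
Heat map of the 73 genes (rows, grouped by role) in the 13 rats (columns, 6 weeks left, 10 weeks right), coloured by log2(normalized count + 1) minus the mean of the 10-week rats. The 43 genes higher at 6 weeks are redder in the 6 left columns, the APC/C core subunits are pale in all columns, and among the 10-week rats column 81 is the reddest and column 78 the bluest.

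Rats of the same age differed among themselves in a shared way. Over all 73 genes, the mean of log2(normalized count + 1) ran from 6.52 (rat 80) to 7.35 (rat 84) at 6 weeks and from 4.92 (rat 78) to 6.08 (rat 81) at 10 weeks, so the ages did not overlap. Among the 10-week rats, rat 81 was the highest for 29 of the 43 genes called at 6 weeks and rat 78 the lowest for 22. Rat 78 had 10 of these genes listed at 0, and rats 74, 85 and 87 had 1 each. Among the 6-week rats, rat 84 was the highest for 19 genes and rat 86 for 15, and rat 75 was the lowest for 25 and rat 80 for 13. Rats 75, 78, 80 and 81 all belong to the smaller set, which stood apart over all genes. Such ranks were not counted over all genes, so these counts are not shown to be particular to mitotic genes.

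Promoter sequence is shown for called genes because these genes moved together and because mitotic promoters are known for a shared element. The cell cycle genes homology region (CHR), with the core TTTGAA, is bound by the DREAM and MuvB complexes, and the CCAAT box is bound by NF-Y. The 150 bases before the RefSeq start on build GRCr8 are given 5′ to 3′ on the strand of the gene, for the called gene with the largest fold change of 6 roles among those with a TTTGAA match in this stretch. They lie at chr6:31431553-31431702 on the minus strand for Cenpa, chr3:74396719-74396868 on the minus strand for Spc25, chr10:103571996-103572145 on the plus strand for Birc5, chr10:25665216-25665365 on the minus strand for Hmmr, chr1:245245213-245245362 on the plus strand for Cep55 and chr10:28406327-28406476 on the minus strand for Pttg1. Capitals mark TTTGAA and CCAAT, or TTCAAA and ATTGG where the match is on the other strand.
Cenpa: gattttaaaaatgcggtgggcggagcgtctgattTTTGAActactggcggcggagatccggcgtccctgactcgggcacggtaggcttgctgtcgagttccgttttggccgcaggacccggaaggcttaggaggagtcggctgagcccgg
Spc25: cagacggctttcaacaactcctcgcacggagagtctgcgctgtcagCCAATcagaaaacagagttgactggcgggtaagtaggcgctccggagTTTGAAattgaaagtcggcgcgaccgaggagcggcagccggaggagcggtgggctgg
Birc5: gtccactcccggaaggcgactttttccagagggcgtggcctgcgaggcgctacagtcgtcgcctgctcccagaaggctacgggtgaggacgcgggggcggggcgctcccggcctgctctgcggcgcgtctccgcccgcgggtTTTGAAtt
Hmmr: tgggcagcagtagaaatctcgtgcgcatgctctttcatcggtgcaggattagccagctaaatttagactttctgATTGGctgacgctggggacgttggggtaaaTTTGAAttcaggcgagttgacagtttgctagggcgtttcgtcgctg
Cep55: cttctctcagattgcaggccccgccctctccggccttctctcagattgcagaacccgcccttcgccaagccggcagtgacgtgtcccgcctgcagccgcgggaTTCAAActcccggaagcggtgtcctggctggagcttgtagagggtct
Pttg1: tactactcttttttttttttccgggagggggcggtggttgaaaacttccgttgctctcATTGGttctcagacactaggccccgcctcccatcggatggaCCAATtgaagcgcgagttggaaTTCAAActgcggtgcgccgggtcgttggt

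In these 6 stretches the TTTGAA match starts 116 bases before the start in Cenpa, 57 in Spc25, 8 in Birc5, 46 in Hmmr, 47 in Cep55 and 29 in Pttg1. A RefSeq window of 300 bases (250 before the start to 50 after) was matched by symbol for 62 of the 73 genes. No window was matched for Aurkb, Cdca2, Foxm1, Ube2c, Anapc16, Anapc4, Incenp, Cenpt, Tpx2, Racgap1 and Zwint. On either strand, TTTGAA was in 26 of the 37 windows of genes higher at 6 weeks (70.3%) and in 6 of the 25 windows of the other genes (24.0%). It was in 1 of 8 windows of the APC/C core, in 1199 of 10104 windows over the genes of the table (11.9%) and in 18.1% of all 27457 promoters. CCAAT was in 22 of the 37 (59.5%), in 13 of the 25 (52.0%), in 37.5% of the windows over the table and in 37.7% of all promoters. Both were in 16 of the 37 (43.2%), in 2 of the 25 (8.0%) and in 4.93% of the windows over the table. The motifs overlapped each other in 2 genes, Cdca8 and Mki67. The 37 windows held 29 TTTGAA matches. Of these, 26 began between 100 bases before the start and 50 after it. The median position of the 29 was 18 bases before the start. These are matches of letters, given as a description, and binding was not measured.

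**Figure D2:**
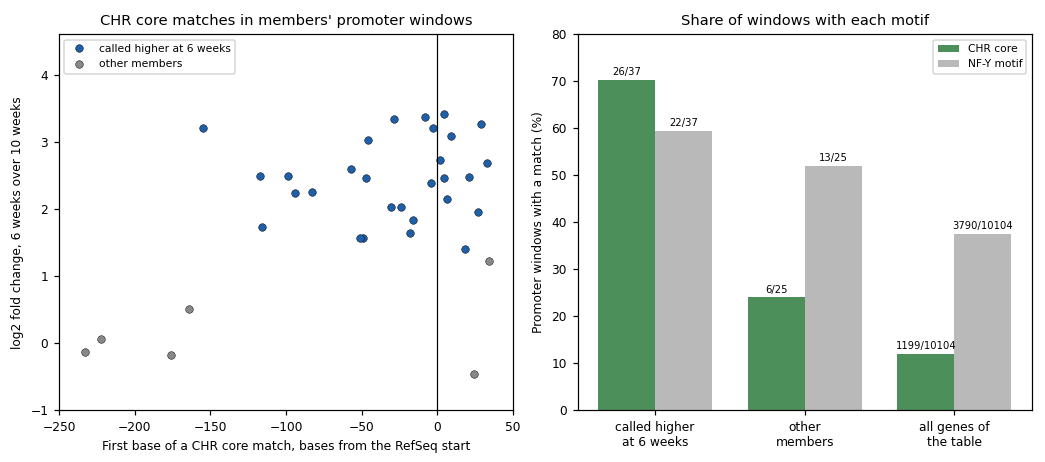
Left, position of each TTTGAA (CHR core) match in the promoter window (bases from the RefSeq start, 0 on the vertical line) against the log2 fold change of its gene. Right, percent of promoter windows with the CHR core (green) or the CCAAT box (NF-Y motif, grey), with counts above the bars: 26 of 37 windows of genes higher at 6 weeks held the CHR core, against 6 of 25 and 1199 of 10104.

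The inner kinetochore rose in 9 of 13 genes, with a median log2 fold change of 1.73 over the 13. Cenpw (ENSRNOG00000042944) encodes a histone-fold protein that pairs with CENP-T on centromeric DNA. In rats 70, 71, 75, 80, 84 and 86 of 6 weeks its normalized counts were 75, 41, 30, 38, 80 and 57, with a lowest, median and highest value of 30, 49 and 80. At 10 weeks the lowest, median and highest were 0, 4 and 11. The ages did not overlap, and rat 78 was the one listed at 0. The log2 fold change of Cenpw was 3.41 ± 0.48 (SE, adjusted p = 0.000672, limma). Cenph (ENSRNOG00000018615) belongs to a subcomplex that links CENP-A chromatin to the outer plate. Its normalized counts ran from 9 through a median of 36.5 to 51 at 6 weeks and from 2 through 5 to 9 at 10 weeks. The ages met at a single value, 9, in rat 75 within WOS and rat 81 outside it. Its log2 fold change was 2.55 ± 0.38 (SE, adjusted p = 0.00099, limma).

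The partners of these proteins moved the same way. The other called genes of the inner kinetochore were Cenpm (log2 fold change 2.48), Cenpt (2.40), Cenpk (2.21), Cenpu (1.83), Cenpa (1.73), Cenpi (1.57) and Cenpn (1.17), with adjusted p of at most 0.0172. Cenpm, Cenpk and Cenpi act with Cenph, Cenpt binds Cenpw, and Cenpa is the histone H3 variant that marks the centromere. For 4 of the 9, Cenpw, Cenpt, Cenpk and Cenpu, every 6-week rat lay above every 10-week rat. Cenpl (−0.018), Cenpc (−0.19), Cenpo (−0.47) and Cenpq (0.75) did not pass, with adjusted p from 0.236 upward. Cenpc is a scaffold between the centromere and the MIS12 complex, and its counts were 626 to 817 at 6 weeks and 694 to 942 at 10 weeks. Both Cenpq and Cenpo were listed at 0 in rat 80. Cenpq was higher at 6 weeks in the larger set (2.15, adjusted p = 0.046, limma).

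In the outer kinetochore 8 of 12 genes rose, with a median log2 fold change of 2.05 over the 12. Nuf2 (ENSRNOG00000002711) is a subunit of the NDC80 complex, which grips microtubule ends. Its normalized counts ran from 94 through 145 to 199 at 6 weeks and from 0 through 20 to 59 at 10 weeks. Rat 78 was listed at 0, the next lowest 10-week rat had 14, and rat 81 had the 59. The log2 fold change of Nuf2 was 3.26 ± 0.71 (SE, adjusted p = 0.0096, limma). Spc24 (ENSRNOG00000029862), at the other end of the same complex, had 13, 25.5 and 33 at 6 weeks and 0, 3 and 4 at 10 weeks as lowest, median and highest. The gap between the ages was thus from 4 to 13, and the log2 fold change was 3.22 ± 0.41 (SE, adjusted p = 0.000366, limma).

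All 4 NDC80 subunits were called, since Ndc80 (log2 fold change 2.68) and Spc25 (2.59) rose as well. Cenpf (2.73) and the kinesin motor Cenpe (2.68), which both sit on the outermost corona, rose to a like degree. Dsn1 (1.52), of the MIS12 complex, and Ska3 (0.89), of the SKA complex that keeps kinetochores on moving microtubule ends, were the other calls. Ska1 (1.22, adjusted p = 0.105) and Ska2 (1.36, adjusted p = 0.234) did not pass by limma over 13 rats. Ska1 had 74 in rat 81 and at most 12 in the other 10-week rats, and Ska2 was listed at 0 in rat 78. In the larger set limma called both, with log2 fold changes of 1.57 (adjusted p = 0.00415) and 0.64 (adjusted p = 0.0259). Zwint, which links the corona to the NDC80 network, did not pass (0.25, adjusted p = 0.0788).

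Mis12 had the lowest log2 fold change of the outer kinetochore, at −0.38 (adjusted p = 0.0535, limma). It encodes the namesake of the complex to which Dsn1 belongs. Its counts were 80 to 96 at 6 weeks and 83 to 135 at 10 weeks, and 6 of 7 rats of 10 weeks lay above all rats of 6 weeks. Limma gave −0.52 in the larger set (adjusted p = 0.0143). Dsn1, with 66 to 144 at 6 weeks and 24 to 49 at 10 weeks, thus differed in direction from Mis12, a difference between the 2 genes that was not itself tested.

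The other Cenp symbols hold 0 of 3 calls by limma. Of the 3, 0 had an unadjusted p under 0.05, where 4667 of all 14790 genes did. Cenpb (ENSRNOG00000057284), which binds a DNA box in centromeric repeats, had 229, 506 and 583 at 6 weeks and 249, 339 and 540 at 10 weeks as lowest, median and highest. Its log2 fold change of 0.20 ± 0.27 (SE, adjusted p = 0.64, limma) lay within the spread. Cenpv (0.08) and Cenpj (0.023), the latter a protein of the centriole, were also close to 0.

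Of the 6 checkpoint genes, 4 rose, and the median log2 fold change of the 6 was 2.17. Ttk (ENSRNOG00000029055) encodes MPS1, the kinase at the head of the checkpoint. Its normalized counts ran from 67 through 98 to 144 at 6 weeks and from 8 through 21 to 29 at 10 weeks, with no overlap. Its log2 fold change was 2.45 ± 0.28 (SE, adjusted p = 0.00021, limma). Bub1 (ENSRNOG00000032778), a kinase that gathers checkpoint proteins on the kinetochore, had 295, 231, 157, 176, 370 and 329 in rats 70, 71, 75, 80, 84 and 86. In rats 72, 74, 78, 81, 83, 85 and 87 of 10 weeks it had 48, 38, 50, 64, 41, 49 and 34. The rats of 10 weeks were close together, rat 78 among them, and the lowest rats of 6 weeks were 75 and 80. Bub1 had a log2 fold change of 2.42 ± 0.22 (SE, adjusted p = 7.26e-05, limma).

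Bub1b (2.38) and Mad2l1 (1.95), which together with Bub3 seize the APC/C activator Cdc20, rose as well, and all 4 called checkpoint genes showed no overlap between the ages. Bub3 itself (0.28, adjusted p = 0.231) and Mad1l1 (0.21, adjusted p = 0.635), the anchor of Mad2l1, did not pass by limma. The counts of Bub3 were 196 to 359 at 6 weeks and 184 to 240 at 10 weeks.

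The chromosomal passenger complex rose in 3 of 4 genes. Birc5 (ENSRNOG00000050819), or survivin, targets the complex to the centromere, and its counts ran from 19 through 41.5 to 68 at 6 weeks and from 0 through 3 to 10 at 10 weeks. Rat 81 held the 10 and rat 78 the 0, and the ages did not overlap. On the log2 scale the fold change was 3.37 ± 0.48 (SE, adjusted p = 0.000653, limma). Cdca8 (ENSRNOG00000031431), or borealin, binds survivin in the same module and ran from 39 through 73 to 122 and from 6 through 15 to 38. Its lowest 6-week value (39, rat 75) and highest 10-week value (38, rat 81) almost met, and its log2 fold change was 2.23 ± 0.38 (SE, adjusted p = 0.0021, limma). Aurkb, the kinase of the complex, rose by 2.12 on the log2 scale (adjusted p = 0.0129, limma), with 79 in rat 81 above the 72 of rat 75. Incenp, the scaffold that carries all the others, did not pass (−0.16, adjusted p = 0.65). Its counts were 121 to 195 at 6 weeks and 109 to 308 at 10 weeks, with the 308 in rat 78.

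Among the Aurora A and Polo-like kinases 2 of 5 genes rose and 1 was higher at 10 weeks. Plk1 (ENSRNOG00000018815), which drives entry into mitosis and centrosome maturation, ran from 22 through 29.5 to 43 at 6 weeks and from 0 through 9 to 26 at 10 weeks. The ages overlapped through rat 81, and the log2 fold change was 2.15 ± 0.62 (SE, adjusted p = 0.0342, limma). This call was lost in 6 of 13 fits that left out a rat. Plk4 (ENSRNOG00000011654), the kinase of centriole duplication, ran from 175 through 223.5 to 288 and from 66 through 83 to 163. Rat 81 had the 163 and the next 10-week rat 95, and the log2 fold change was 1.41 ± 0.21 (SE, adjusted p = 0.000918, limma).

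Plk3 (ENSRNOG00000018484) is a kinase of the same family that is known from responses to stress and growth factors. It had 1108, 1097, 1596, 1567, 797 and 769 in rats 70, 71, 75, 80, 84 and 86 within WOS. In rats 72, 74, 78, 81, 83, 85 and 87 outside WOS it had 1661, 1786, 3207, 2304, 2814, 1280 and 1739. At both ages the rats of the smaller set were the highest, and only rat 85 fell into the range of the 6-week rats. The log2 fold change was −0.86 ± 0.24 (SE, adjusted p = 0.0314, limma), with −0.79 in the larger set and −0.80 in the smaller. Plk3 too lost its call in 6 of 13 fits. Plk2, another stress-related member, did not pass (0.30, adjusted p = 0.0641), although its 4213 to 5526 at 6 weeks lay above its 3123 to 4207 at 10 weeks. Aurka, the Aurora kinase of the spindle poles, did not pass either (0.53, adjusted p = 0.112), with 25 in rat 75 and 52 or more in the other 6-week rats. Limma called Aurka in the larger set (0.81, adjusted p = 0.0116).

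All 5 spindle assembly genes rose, with a median log2 fold change of 3.02 and no overlap between the ages for any of them. Tpx2 (ENSRNOG00000008165) activates Aurora A and starts microtubules around chromosomes. In rats 70, 71, 75, 80, 84 and 86 its normalized counts were 232, 158, 121, 180, 296 and 259. In rats 72, 74, 78, 81, 83, 85 and 87 they were 17, 20, 0, 55, 36, 22 and 12. The 10-week rats thus ran from 0 to 55 around a median of 20, and the 6-week rats from 121 to 296 around 206. The log2 fold change was 3.67 ± 0.73 (SE, adjusted p = 0.00573, limma), the largest of the 73 genes over all 13 rats. In the larger set Tpx2 had 3.66, below Pttg1 (4.03), Hmmr (3.78) and Ect2 (3.69). Nusap1 (ENSRNOG00000004921), which bundles spindle microtubules, ran from 78 through 167.5 to 268 at 6 weeks and from 6 through 17 to 35 at 10 weeks. Its log2 fold change was 3.08 ± 0.40 (SE, adjusted p = 0.000408, limma). Hmmr (3.02), Aspm (1.83) and Dlgap5 (1.37) were the other calls. Aspm focuses spindle poles and Dlgap5 steadies the fibres at kinetochores.

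All 5 genes of the central spindle and cytokinesis rose too, with a median log2 fold change of 2.46 and no overlap for any of them. Ect2 (ENSRNOG00000024365), the exchange factor that switches on RhoA at the cleavage plane, ran from 141 through 258.5 to 373 at 6 weeks. At 10 weeks it ran from 12 through 25 to 76, with the 76 in rat 81 and 32 in the next rat. Its log2 fold change was 3.20 ± 0.37 (SE, adjusted p = 0.00021, limma). Racgap1 (ENSRNOG00000049033), the partner that recruits Ect2 to the midzone, ran from 105 through 175.5 to 301 and from 6 through 26 to 63, with a log2 fold change of 2.96 ± 0.45 (SE, adjusted p = 0.00111, limma). Cep55 (2.46), which calls the abscission machinery to the midbody, had the smallest adjusted p of the 73 genes (6.58e-05, limma), with 55 to 120 against 12 to 18. Anillin, from Anln (2.03), scaffolds the contractile ring, and Prc1 (1.64) crosslinks microtubules of the midzone.

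**Figure D3:**
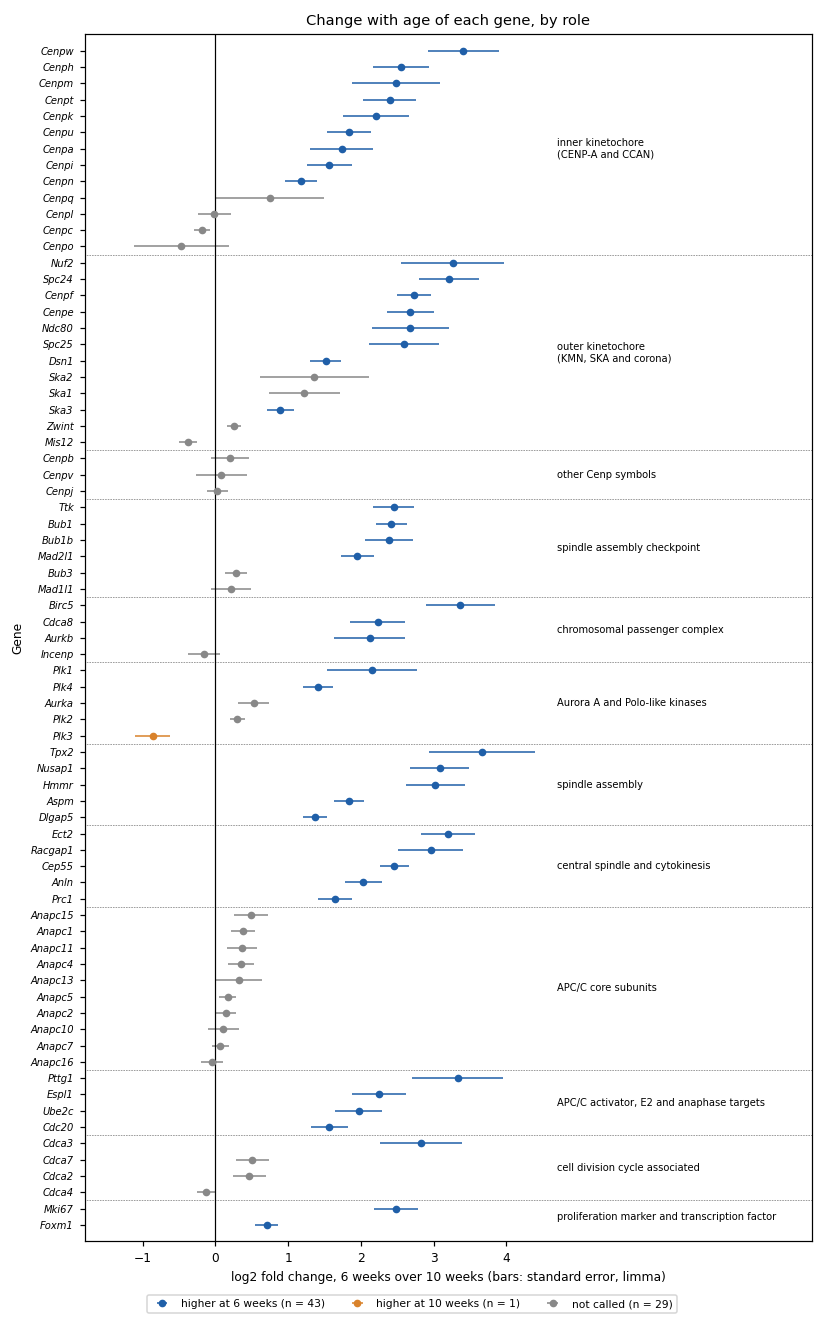
Log2 fold change of each gene (6 weeks over 10 weeks, horizontal axis) with its standard error from limma (bars), by role. The 43 genes higher at 6 weeks (blue) run from 0.70 to 3.67, Plk3 (orange) lies at −0.86, and the 10 APC/C core subunits lie between −0.049 and 0.49.

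No subunit of the APC/C core was called over all 13 rats with equal weights. By limma 0 of 10 passed, and the median log2 fold change was 0.24. An unadjusted p under 0.05 was reached by 1 of the 10, where 4667 of all 14790 genes reached it. Anapc15 (ENSRNOG00000019936), which helps to strip checkpoint proteins off the complex, had the largest value of the 10. It ran from 16 through 38 to 46 at 6 weeks and from 16 through 25 to 32 at 10 weeks, and the 16 within WOS was rat 75. Its log2 fold change was 0.49 ± 0.23 (SE, adjusted p = 0.166, limma). The lowest adjusted p of the 10 was that of Anapc1, the scaffold subunit, at 0.129. The values of the catalytic pair, Anapc2 (0.14) and Anapc11 (0.36), of Anapc10 (0.10), which helps to hold substrates, and of Anapc4 (0.35), Anapc5 (0.17), Anapc7 (0.065), Anapc13 (0.32) and Anapc16 (−0.049) did not pass either. In the larger set limma called Anapc15 (0.74, adjusted p = 0.04), Anapc1 (0.55, adjusted p = 0.015) and Anapc4 (0.50, adjusted p = 0.0325), and the median of the 10 was 0.40. In the smaller set their median was 0.0. With sample quality weights, where 20.3% of all genes were higher at 6 weeks, 5 of the 10 were (Anapc1, Anapc4, Anapc11, Anapc13 and Anapc15, log2 fold changes of 0.41 to 0.74).

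Beside the core, the rule takes 4 genes for an activator, a ubiquitin-loading enzyme, securin and separase. All 4 were called, with a median log2 fold change of 2.11. Pttg1 (ENSRNOG00000003802), or securin, blocks separase until the APC/C has it destroyed. Its counts were 53, 28, 13, 33, 61 and 43 in rats 70, 71, 75, 80, 84 and 86, and 3, 4, 0, 18, 5, 0 and 2 in rats 72, 74, 78, 81, 83, 85 and 87. Only the 18 of rat 81 exceeded the lowest 6-week value, and 2 rats were listed at 0. For securin the log2 fold change was 3.33 ± 0.63 (SE, adjusted p = 0.00408, limma), and 4.03 in the larger set. Espl1 (ENSRNOG00000012835), separase itself, ran from 42 through 65.5 to 86 and from 6 through 9 to 33, with no overlap and a log2 fold change of 2.25 ± 0.37 (SE, adjusted p = 0.00184, limma). Ube2c (1.97), the enzyme that loads ubiquitin for the complex, and the activator Cdc20 (1.57) rose without overlap as well.

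Outside these complexes, 1 of 4 Cdca genes rose. Cdca3 (ENSRNOG00000015529), part of a ubiquitin ligase that promotes entry into mitosis, ran from 25 through 53.5 to 80 at 6 weeks and from 0 through 7 to 17 at 10 weeks. Rat 78 was listed at 0, the ages did not overlap, and the log2 fold change was 2.83 ± 0.56 (SE, adjusted p = 0.00545, limma). Cdca7 (0.51, adjusted p = 0.147), Cdca2 (0.47, adjusted p = 0.172) and Cdca4 (−0.13, adjusted p = 0.527) did not pass by limma. Cdca7 was called in the larger set (1.02, adjusted p = 0.0116, limma).

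Mki67 (ENSRNOG00000028137) encodes Ki-67, the coat protein of mitotic chromosomes that is used to stain dividing cells. It had 1826, 1611, 1562, 1293, 2572 and 2820 in rats 70, 71, 75, 80, 84 and 86 within WOS. In rats 72, 74, 78, 81, 83, 85 and 87 it had 316, 347, 155, 766, 387, 336 and 270. Rat 81 again stood above the other 10-week rats, but below every 6-week rat. The log2 fold change of Mki67 was 2.49 ± 0.31 (SE, adjusted p = 0.000302, limma), with 2.76 in the larger and 1.98 in the smaller set of rats. Foxm1 (ENSRNOG00000005936), a transcription factor of late cell cycle genes, had the smallest log2 fold change of the 43. Its median was 177 (154 to 195) at 6 weeks and 119 (64 to 140) at 10 weeks. Its groups did not overlap, and its log2 fold change was 0.70 ± 0.16 (SE, adjusted p = 0.0127, limma).

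**Figure D4:**
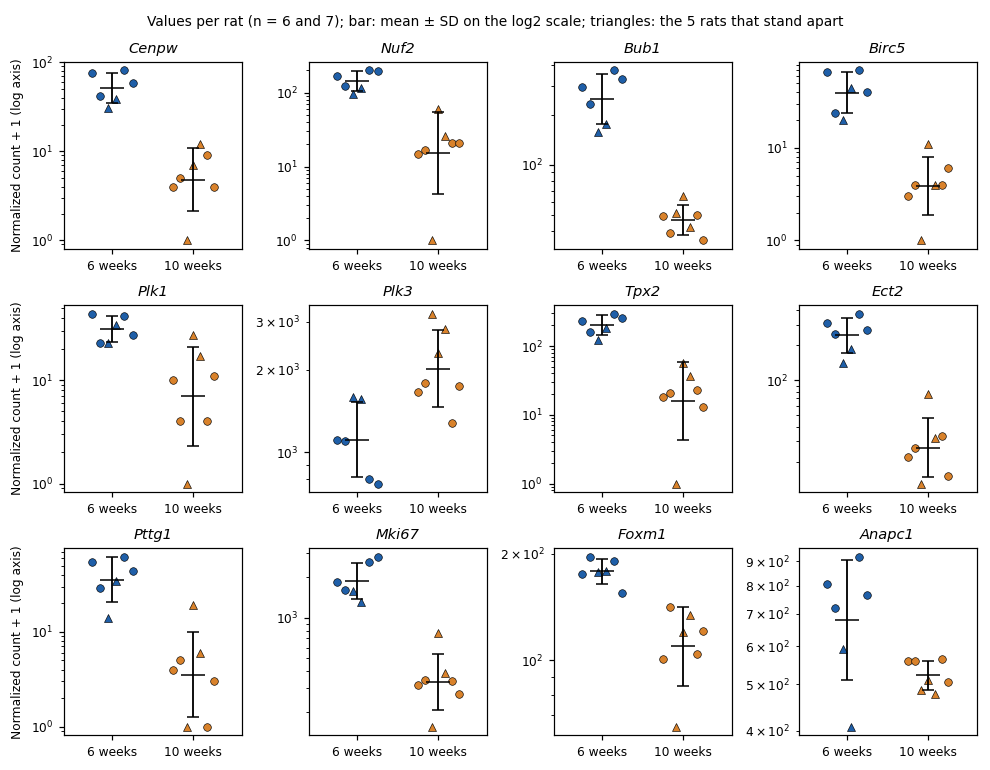
Normalized count + 1 (log axis) in each rat for 12 genes, at 6 weeks (blue, n = 6) and 10 weeks (orange, n = 7), with bars for the mean ± SD on the log2 scale and triangles for the 5 rats that stand apart. All 6-week rats lie above all 10-week rats for 8 of the 12 panels, and the ages overlap for Plk1, Plk3, Pttg1 and Anapc1.

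A list of 84 further mitosis genes that the symbols above do not take gave 78 genes in the table. Of these, 36 were higher at 6 weeks (8.71% of all genes) and 1 was higher at 10 weeks (7.39% of all genes), with a median log2 fold change of 0.55. The mitotic kinesins, motors that build and stretch the spindle, rose in 11 of 12 genes (median 2.61). Examples are Kif4a (3.13), a motor of chromosome arms and the midzone, and Kif23 (2.02), the kinesin that joins Racgap1 in centralspindlin. Kif18a (0.84, adjusted p = 0.0533, limma) was the exception over 13 rats, and in the larger set it was called too (1.06, adjusted p = 0.00493, limma). By other methods (EBSeq, DESeq and edgeR) the study found Kif18a significantly higher within WOS. Of the mitotic cyclins, CDK1 and its phosphatases and inhibitory kinases 6 of 7 rose, among them Ccnb1 (3.13), the cyclin that the APC/C destroys, and Cdk1 (2.95). Dropping any single rat kept 4 of these 6 calls, and Cdc25b and Pkmyt1 were called in 5 and 10 of the 13 fits. Wee1, which restrains CDK1, did not pass over 13 rats (−0.60, adjusted p = 0.0631, limma) and was higher at 10 weeks in the larger set (−0.74, adjusted p = 0.0385, limma).

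Further kinetochore and centromere genes rose in 10 of 16 cases (median 1.29). Knl1 (1.77), the third part of the outer network with NDC80 and MIS12, Hjurp (1.38), the chaperone that deposits CENP-A, and Sgo2 (2.62), which protects centromeric cohesion, were among them. Dropping any single rat kept 9 of these 10 calls, and Spdl1 was called in 11 of the 13 fits. The MIS12 complex partners Nsl1 (2.13) and Pmf1 (1.57) rose too, so that 3 of the 4 genes of that complex were higher at 6 weeks and Mis12 was not. The outer kinetochore factors Clasp1 (0.016) and Clasp2 (−0.22), which also act on microtubules in interphase, did not pass.

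The remaining lists held fewer calls. Centrosome and spindle pole genes rose in 5 of 15 cases, such as Tacc3 (2.68) and Stil (2.01). Dropping any single rat kept 3 of these 5 calls, and Haus4 and Haus7 were called in 3 and 4 of the 13 fits. In the larger set 9 of the 15 were higher at 6 weeks, against 13.6% of all genes. Haus7 was not among the 9 (0.56, adjusted p = 0.0955, limma). The last 3 lists had shares of calls that can be read against the 8.71% of all genes. Other cytokinesis genes rose in 1 of 9 cases (Cit, citron kinase, 2.27), and Pdcd6ip, an abscission factor that also acts in membrane traffic, was higher at 10 weeks (−0.27, adjusted p = 0.0424, limma). The Pdcd6ip call was made in 2 of 13 fits without a rat and was lost in the larger set (−0.29, adjusted p = 0.0581, limma). Other APC/C subunits and regulators rose in 1 of 8 cases, Ube2s (0.46), which extends ubiquitin chains and was called in 4 of 13 fits without a rat. The core subunits among these 8, Cdc16, Cdc23, Cdc26 and Cdc27, had log2 fold changes from −0.21 (Cdc16) to 0.54 (Cdc26) and did not pass. The regulators Fzr1 (0.38), Fbxo5 (0.15) and Mad2l1bp (0.15) did not pass either. Of the DREAM and MuvB list 2 of 11 rose, Mybl2 (1.96), which joins MuvB to activate mitotic genes, and Rbl1 (0.70), a pocket protein. Rbl1 lost its call in the larger set (0.45, adjusted p = 0.0571, limma).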

How the data were processed

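RNA-seq libraries of mammary epithelial cells came from 13 rats, 1 library each. The authors ran RSEM 1.2.22 for estimated counts per gene, scaled every library and rounded. The deposited values therefore have the unit score and are called normalized counts. The submitters' processing notes name build rn5, and the annotation and scaling method are not given in the sources used here. The authors' own comparison columns (fold changes, abundances, p-values, false discovery rates, status and location) were not used.

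The ages were compared with limma 3.58.1 (R 4.3.3), no covariate and equal weights, after adding 1 to each value and taking log2. Genes needed a mean of 1 or more, which all 14790 had. This is the test set for scaled values, since raw counts were not at hand. Tests were two-sided, and p-values were adjusted over all genes by the Benjamini-Hochberg method, with a threshold of 0.05. The fit was tested on simulated data with 6 against 7 rats. It called 51 of 100 genes changed by 1 on the log2 scale, 100 of 100 changed by 2, and 3 of 14590 unchanged. A gene that did not pass is thus not shown to be unchanged. Groups came from the labels. Depth before scaling is unknown, so no counting interval is given. Of the 73 genes, 0 shared all their values with another gene. Promoters of RefSeq (GRCr8) were matched by symbol, and the first start listed per gene was taken. Tables were made with pandas 2.3.3 and numpy 2.4.6, and figures with matplotlib 3.10.9, under Python 3.11.15.

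The genes, the lists and the roles were chosen with earlier results of these data known. Lymphocyte markers are not reported here. Every gene of the rule is named. Of each role, the called genes with the largest and the next largest change are given in full, as are genes called against their role and, where a role has no call, its gene of largest change. Alternatives were other scalings, another pseudocount, other minimums, limma-trend, sample quality weights, each rat left out, and each set of rats alone.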

Additional observations from a re-analysis of the deposited data

Results flagged for a closer look

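In 13 of 146 groups of rats (each gene at each age) 1 rat stood apart from the rest by Dixon's test at the 95% level on log2(normalized count + 1), and chance gives about 7.3 such groups. Rat 78 accounts for 7 of them, rat 75 for 3, rat 81 for 2 and rat 80 for 1, and these 4 rats belong to the set of 5 that stood apart over all genes. Their part in the results was not tested beyond the fits without them.

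Rat 78 was the lowest 10-week rat for each of its 7 genes. It was listed at 0 for Nuf2 (next lowest rat 14), Ska2 (9), Tpx2 (12) and Cdca3 (5). It had 4 for Cenpa (next 15), 64 for Foxm1 (next 100) and 70 for Anapc10 (next 120).

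Rat 81 was the highest 10-week rat for Ska1, with 74 against 12 in the next rat, and for Plk4, with 163 against 95. Among the 6-week rats, rat 75 was the lowest for Cenph (9, next 30), Aurka (25, next 52) and Anapc15 (16, next 35). Rat 80 was the lowest for Anapc4, with 165 against 271 in the next rat.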

How the results depend on the processing

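The 43 genes higher at 6 weeks stayed above 0 in every fit that tested them, and all but Plk1 passed the threshold in each such fit of all 13 rats and in the larger set. These fits use the rats over which the 43 were chosen, so they are not independent of that choice. Plk1 lost its call at a pseudocount of 0.1, and Cenpm was not tested at a minimum mean of 10. Sample quality weights gave 55 genes higher at 6 weeks, against 20.3% of all genes. Leaving out each rat in turn gave 42 to 45 genes higher at 6 weeks and 0 to 2 higher at 10 weeks. Over all 14790 genes these fits called 803 to 1461 at 6 weeks and 608 to 1219 at 10 weeks. They also gave 34 to 44 genes without overlap, a median log2 fold change of 1.42 to 1.67, and 30 to 39 other mitosis genes higher at 6 weeks. Plk3 lost its call without rat 70, 71, 84, 86, 78 or 83. At 10 weeks 2 genes were higher with median-ratio scaling, 3 with sample quality weights and 2 in the larger set. Over all genes these settings called 1174, 2638 and 1466 at 10 weeks. The larger set gave 56 genes without overlap. Of all genes 14.3% did not overlap there with 6 weeks higher, and 12.8% with 10 weeks higher. The smaller set of 5 rats gave 0 genes higher at 6 weeks, 0 at 10 weeks, 0 other mitosis genes and a median of 1.03, in a fit of 2 against 3 rats that called 0 genes of the table. The minimum of 1 removed no gene, so using none gave the same values.

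Genes that changed direction were all uncalled over 13 rats. In the smaller set these were Cenpq (−1.65), Cenpv (−0.83), Anapc13 (−0.69), Cdca7 (−0.28), Anapc5 (−0.10), Bub3 (−0.054), Aurka (−0.022), Anapc15 (−0.011) and Anapc11 (−0.001). In the larger set they were Cenpo (0.81), Incenp (0.30), Cenpj (−0.17), Cenpl (0.091) and Cdca4 (0.027). With sample quality weights they were Cenpo (0.15), Cenpj (−0.12), Cenpl (0.072), Cdca4 (0.044) and Incenp (0.027), and with library size scaling Cenpl (0.029). Leaving out a rat gave ranges across 0 for Cenpl (−0.13 to 0.14), Cenpo (−0.80 to 0.18), Cenpv (−0.079 to 0.35), Cenpj (−0.037 to 0.083), Anapc10 (−0.050 to 0.22) and Anapc16 (−0.13 to 0.047). The cause was not tested. No paired analysis was possible because the ages share no replicate number, each number being a rat. Depth before scaling is unknown, which limits genes with low values most.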
